A study of Mus musculus with 24 samples.

Results

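The digestive enzymes and zymogen granule proteins that the acinar cells of the exocrine pancreas make for secretion were followed in the pancreas of mice on a high-fat diet. They were taken as 34 named genes in 9 roles: trypsinogens, chymotrypsinogens, elastases, carboxypeptidases, lipases with their cofactors, amylases, nucleases, protease inhibitors with a kallikrein, and granule proteins. A probe counted as a member when its annotated symbol, or an older name of that symbol, was on the list and its detection p was under 0.05 on at least 4 of 24 arrays. This gave 36 probes of 29 genes among 15328 such probes, which named 9164 genes, and each of the 36 was detected on all 24 arrays. The annotation used here named no probe for Prss1, Cela3a, Pnlip or Amy2b, which were not analysed here, and the probe of Dnase1 was detected on no array. Spink3 is carried in current annotation as Spink1, a trypsin inhibitor.

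Total RNA from frozen pancreas of male C57BL/6J mice was hybridised to Illumina bead arrays, 4 per group, after 12 weeks of a diet with 60% fat. All 6 groups shared the strain, the sex, the diet and single housing, and the mice were 3 weeks old on arrival. The control group drank water. AFFB is a fermented blackberry and blueberry beverage freed of alcohol, given at 8.4 mg of anthocyanins per kg body weight per day, and PAE is its phenolic extract. The PAE groups took daily anthocyanin doses of 1.1 mg per kg at 0.1X, 9.0 mg per kg at 1X and 18.9 mg per kg at 3X. The protocol's text calls the highest dose 2X where the sample titles have 3X. Sitagliptin, an inhibitor of the incretin-degrading enzyme DPP-IV, was dissolved in the drinking water at 150 mg per L. The protocol assigned 12 mice to each group, but the labels leave unsaid whether an array stands for 1 mouse. The p-values therefore reflect only how far these samples differed from each other, and part of that may be technical.

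Acinar cells store digestive enzymes as inactive precursors in zymogen granules and release them when cholecystokinin or acetylcholine acts on the cell. Trypsin, once activated in the gut, activates the other proteases in turn, while amylase and most lipases are secreted in active form. Transcription of many of these genes depends on PTF1, a complex that contains PTF1A and RBPJL and binds a paired site made of an E-box and a TC-box. Amylase expression in the rodent pancreas is known to respond to insulin and to the carbohydrate of the diet.

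The amylase genes carried most of the variation between arrays, so their promoters are shown with that of Cela1, an elastase gene that holds the letters of both the E-box and the TC-box close together. Each stretch is 300 bases around the annotated start, from RefSeq on GRCm38.p6, written 5′ to 3′ on the gene's strand. Capitals mark the letters of an E-box, CACCTG, and of a TC-box, TTTCCC, or their reverse complements CAGGTG and GGGAAA, wherever they fall.
Amy2a5 (chr3:113258650-113258949, minus strand): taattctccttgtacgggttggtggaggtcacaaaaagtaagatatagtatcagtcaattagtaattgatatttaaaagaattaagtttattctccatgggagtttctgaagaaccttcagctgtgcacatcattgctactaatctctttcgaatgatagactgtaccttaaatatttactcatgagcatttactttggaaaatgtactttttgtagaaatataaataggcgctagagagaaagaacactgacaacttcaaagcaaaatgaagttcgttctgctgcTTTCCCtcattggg
Amy2b (chr3:113156678-113156977, minus strand): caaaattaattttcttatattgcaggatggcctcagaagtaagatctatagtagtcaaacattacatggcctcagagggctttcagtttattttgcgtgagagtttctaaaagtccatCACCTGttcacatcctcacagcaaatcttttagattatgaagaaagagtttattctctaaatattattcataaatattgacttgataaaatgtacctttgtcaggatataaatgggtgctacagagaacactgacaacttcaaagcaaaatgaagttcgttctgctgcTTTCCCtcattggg
Amy1 (chr3:113574713-113575012, minus strand): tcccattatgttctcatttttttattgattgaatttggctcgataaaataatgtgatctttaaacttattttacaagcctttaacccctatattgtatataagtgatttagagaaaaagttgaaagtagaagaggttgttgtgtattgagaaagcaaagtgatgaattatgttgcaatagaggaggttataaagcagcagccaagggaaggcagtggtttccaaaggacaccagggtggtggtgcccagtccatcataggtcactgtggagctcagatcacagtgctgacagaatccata
Cela1 (chr15:100687871-100688170, minus strand): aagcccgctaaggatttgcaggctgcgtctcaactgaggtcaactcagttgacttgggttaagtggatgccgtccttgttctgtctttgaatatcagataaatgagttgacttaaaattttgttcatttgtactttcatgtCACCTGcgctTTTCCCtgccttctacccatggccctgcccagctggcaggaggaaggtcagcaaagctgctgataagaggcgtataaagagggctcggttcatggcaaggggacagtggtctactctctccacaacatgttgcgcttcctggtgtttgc

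Promoters of another length, and those of a chromosome left out of the search, were not counted, for the members or for the background. The promoter table then held 30 stretches for 28 of the 34 genes. CACCTG, searched on both strands, occurred in 16 of the 30 (53.3%) against 20.2% of 32851 promoters of the same length. TTTCCC occurred in 10 (33.3%, against 25.2%), and both motifs in 7 (23.3%, against 4.9%). TATAAA, the core of a TATA box, occurred in 15 of the 30, against 13.6% of all. No match of these 3 motifs overlapped a match of another in the 30 stretches (0 pairs), and a match is a description of the letters only. Of the amylase stretches, Amy2b held both motifs, Amy2a5 held TTTCCC without CACCTG, and neither was in the Amy1 stretch printed above. In Amy2a5 and Amy2b the TTTCCC lies near the 3′ end, downstream of the TATAAA and of an ATG. In Amy2b it is far from the CACCTG, so neither Amy2 stretch shows the motifs side by side. Amy2a5 and Amy2b were 71.0% identical over their aligned length, and the other amylase pairs, which include a further Amy1 start, were 47.8% to 54.4% identical. The Amy2 genes are near-identical copies, so the copy that an Amy2a5 probe read is uncertain, and the same holds for the trypsinogens Try4, Try5 and Try10.

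The members were among the brightest probes on the arrays. Of the 25 probes with the highest mean bead signal, 15 were members, as were 26 of the top 50 and 30 of the top 100. Bead signal also depends on how well each probe binds, so it does not rank the amounts of these mRNAs. The defining markers of acinar cells, 8 of 9 with a kept probe, some of them members, had a mean between 12.68 and 13.03 on the log2 scale on each of the 24 arrays.

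Brightness set a limit on what could be measured. The brightest probe of an array reached a signal of 20748 to 27864, and 16 member probes came to at least 90% of that top on at least 1 array. They were Try4, Try5, Try10, Ctrl, Cela2a, Cela3b, Pla2g1b, Zg16, Sycn and Gp2, 2 of the Amy2a5 probes (ILMN_2668124 and ILMN_2874291), and the brighter probe of Cela1, Cpb1, Pnliprp2 and Clps. Cela2a, an elastase, Pla2g1b, the secreted phospholipase, and Gp2, the major membrane protein of the zymogen granule, were themselves the brightest probe on some array. Gp2 gave the highest signal of any array, 27864 on sitagliptin 2. The files hold no saturation flag. Quantile normalization gives each array the same set of values, so at the top of the scale a log2 value is close to a rank: Cela2a, Pla2g1b and Gp2 all took the same highest value, 14.54.

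**Figure D1:**
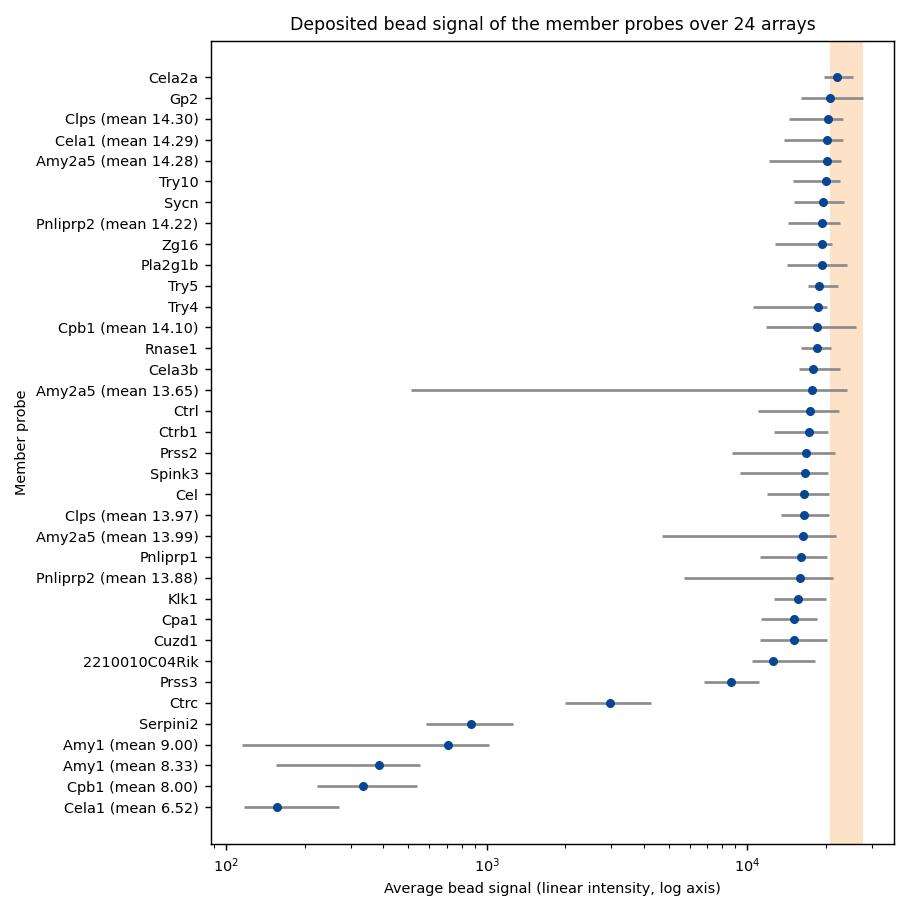
Deposited bead signal of the 36 member probes: points are medians and lines run from the lowest to the highest of 24 arrays, on a log axis of linear intensity. Genes with several probes carry the probe's mean log2 value in brackets. The shaded band spans the brightest probe of each array, 20748 to 27864, and 30 probes have medians of 8646 or more, while 6 have medians of 2962 or less.

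Most bright members varied little between arrays. The within-group SD had a median of 0.133 log2 units over the 30 members with a mean of 13 or more, against 0.145 for the 67 other probes as bright and 0.245 for all 15328. The 3 bright members of largest within-group SD were Amy2a5 ILMN_2933478 at 1.42, Pnliprp2 ILMN_2692167 at 0.481 and Amy2a5 ILMN_2874291 at 0.473. Colipase (Clps, the cofactor of pancreatic lipase, ILMN_2722659) had the smallest within-group SD, 0.0869. Next came Rnase1, the pancreatic ribonuclease, at 0.0890, an Amy2a5 probe (ILMN_2668124) at 0.0958, Klk1, tissue kallikrein, at 0.0961, and Cela2a at 0.0982. The 6 dimmer members had a median SD of 0.373: Ctrc, Serpini2, both probes of Amy1 and a dim probe each of Cpb1 and Cela1. These dim probes are the ones furthest from the top of the scale.

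No member passed in any comparison. At a Benjamini-Hochberg adjusted p under 0.05 in a limma fit across all 15328 probes, 0 of the 36 passed for AFFB against water, where 0% of all probes did. For PAE against water, 0 of 36 passed at 0.1X (0% of all probes), at 1X (0.00652%) and at 3X (0.0457%). Sitagliptin against water gave 0 of 36 (0% of all probes), and the 4 berry groups, averaged and set against water, gave 0 of 36 (0.0326%). AFFB against PAE 1X gave 0 of 36 (0.00652%), and sitagliptin against the berry mean 0 of 36 (0.0457%). A trend by equal steps from water through the PAE doses gave 0 of 36 (0.157%), and the F test over all 5 treatments 0 of 36 (0.104%). With such shares of all probes, a count of 0 among 36 is also near the background.

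Without adjustment, 0 to 4 of the 36 members had a p under 0.05 in a comparison. For PAE 1X against water there were 2 (997 probes, 6.50% of all) and for AFFB against PAE 1X 2 (676, 4.41%). Sitagliptin against the berry mean had 2 (671, 4.38%), the trend 4 (1054, 6.88%) and the F test 1 (661, 4.31%). The other comparisons had 0 members. Their counts over all probes were 771 (5.03%) for AFFB, 579 (3.78%) for PAE 0.1X, 771 (5.03%) for PAE 3X, 420 (2.74%) for sitagliptin and 795 (5.19%) for the berry mean. With such shares, these counts do not set the members apart from all probes. The smallest adjusted p of any member was 0.647, in the trend.

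Differences from water were small for most members, and their intervals were narrow. The median log2 difference over the 36 probes was -0.05 for AFFB, -0.03 for PAE 0.1X, -0.05 for PAE 1X, -0.04 for PAE 3X and -0.03 for sitagliptin, where the medians over all probes lay between -0.00 and 0.02. Lower than water were 25, 22, 24, 27 and 25 of the 36. All 5 comparisons share the water arrays, so these counts are not separate evidence. Under median scaling in place of quantile normalization the numbers lower became 25, 8, 20, 19 and 20. Under that scaling the median over all probes was 0.13 for PAE 1X and 0.16 for PAE 3X, against 0.02 and 0.01 under quantile normalization, and the members' medians were -0.02 and -0.01. The 95% interval lay within 0.5 log2 units on either side of 0 for 27 probes with AFFB, 28 with PAE 0.1X, 26 with PAE 1X, 28 with PAE 3X and 29 with sitagliptin. The standard error of a member's difference had a median of 0.123 against 0.172 over all probes. Of the 36, 30 had a mean of 13 or more, and near the top of the scale values are close to ranks. Narrow intervals there do not show that the mRNA amounts changed little.

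**Figure D2:**
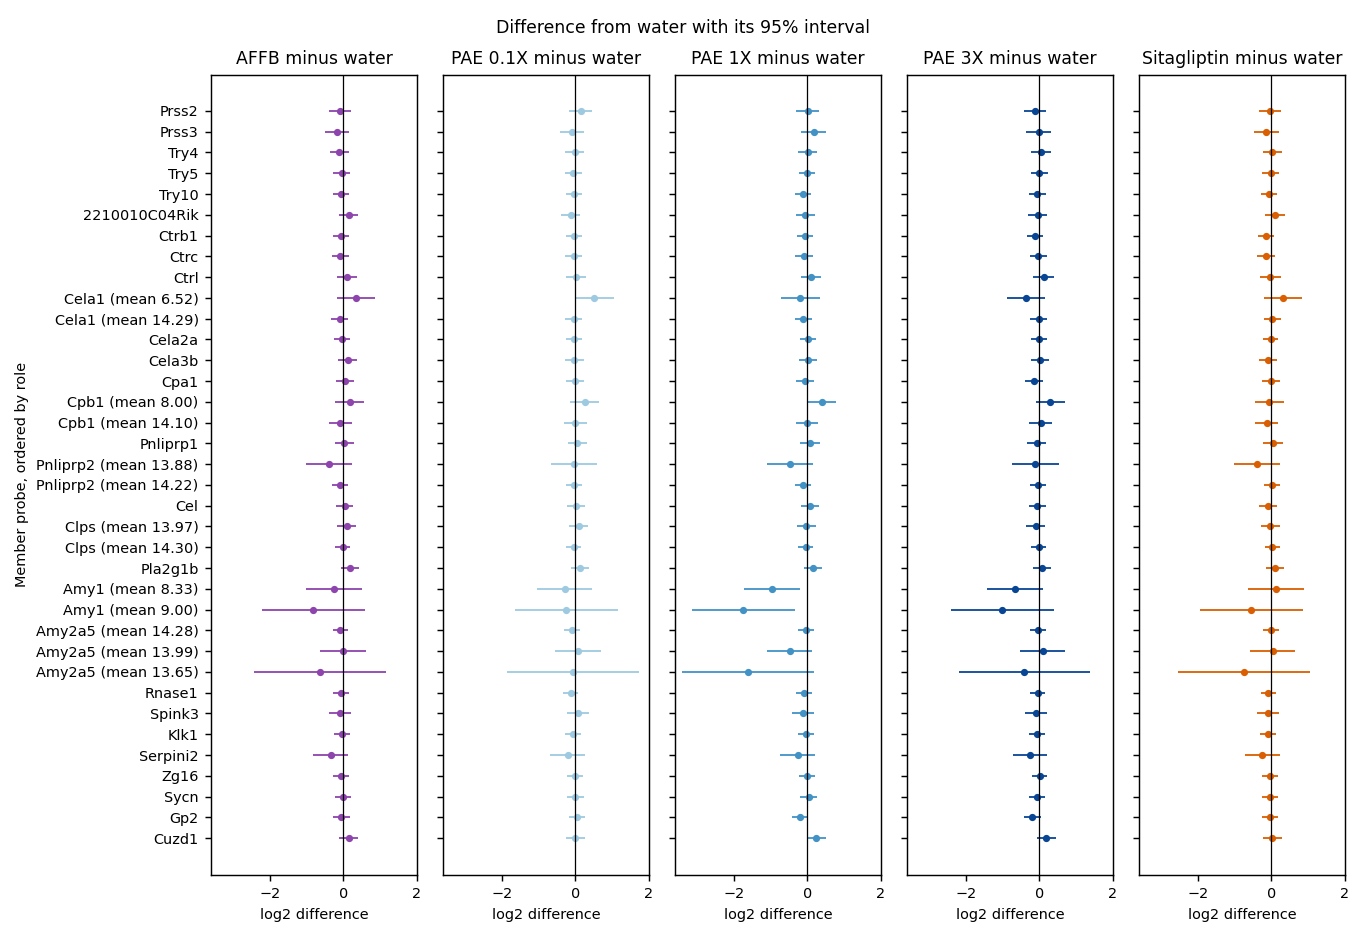
Log2 difference of each treated group from water (points) with the 95% interval of the limma fit (lines), 4 arrays a group. Most members lie within 0.5 log2 units of 0, and the widest intervals belong to Amy1, 2 of the 3 Amy2a5 probes and 1 Pnliprp2 probe.

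Among the trypsinogens, 6 genes had 1 probe each, and their differences in the group comparisons that were fitted ran from -0.35 to 0.20. Try10, the brightest of them, stood at 14.32 ± 0.11 (SD, n = 4) in water and 14.19 ± 0.19 in PAE 1X. The largest gap was that of Prss3, between AFFB and PAE 1X. Prss3 measured 13.19, 12.80, 12.87 and 12.93 in AFFB and 13.16, 12.98, 13.47 and 13.57 in PAE 1X. The highest AFFB array thus lay above 2 of the PAE 1X arrays, and the log2 difference of -0.35 (SE 0.16) had an adjusted p of 1.00.

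The chymotrypsinogens, which cut after aromatic residues once active, moved by at most 0.14 either way. Ctrb1, chymotrypsinogen B, was 14.13 ± 0.04 in water and 13.99 ± 0.19 on sitagliptin (SD, n = 4), a difference of -0.14 (SE 0.11, adjusted p = 1.00). Its lowest array was sitagliptin 3 at 13.71, and the difference was -0.05 without it. Ctrc, a chymotrypsin that degrades trypsinogen in humans, was one of the dimmer members and its sitagliptin difference of -0.14 (SE 0.12, adjusted p = 1.00) took the opposite sign, 0.02, under median scaling.

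The elastases, of which Cela1 cuts after small residues such as alanine, were Cela1, Cela2a and Cela3b. Their bright probes differed little: Cela2a was 14.46 ± 0.09 in water and between 14.42 and 14.48 in the treated groups, and the bright Cela1 probe (ILMN_2693403) was 14.33 ± 0.12 in water. A dim Cela1 probe (ILMN_2544139) behaved differently. The annotation ties it to a cDNA clone record and the bright probe to a RefSeq transcript, so they may read different mRNAs. The dim probe measured 6.20, 6.33, 6.35 and 6.80 in water, 7.06, 7.06, 6.90 and 6.70 in PAE 0.1X, and 6.08, 5.75, 6.26 and 6.12 in PAE 3X. All PAE 0.1X arrays lay above all PAE 3X arrays, while water overlapped both. PAE 1X was spread over most of that range, at 6.31, 7.07, 5.28 and 6.26. Of the members, this probe had the smallest p in the F test over the 5 treatments (adjusted p = 0.917). Its difference from water was 0.51 (SE 0.26, adjusted p = 1.00) at 0.1X, and its trend over the doses was -0.18 per step (SE 0.08, adjusted p = 0.677). AFFB lay above PAE 1X by 0.53 (SE 0.26, adjusted p = 1.00). The bright probe of the same gene gave 14.28 ± 0.08 at 0.1X and 14.31 ± 0.08 at 3X. The Cela3b difference of sitagliptin from the berry mean, -0.12 (SE 0.10, adjusted p = 1.00), rested on sitagliptin 3, at 13.67 the lowest of the 24 arrays, and was 0.000856 without it.

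Carboxypeptidases trim residues from the ends of the peptides that the other proteases leave. Cpa1 was 13.87 ± 0.11 in water and Cpb1 (ILMN_3160208) 14.13 ± 0.20 (SD, n = 4). A second, dim Cpb1 probe (ILMN_1259010) measured 7.97, 7.48, 8.03 and 7.81 in water and 8.15, 8.49, 7.88 and 8.32 in PAE 1X. The groups overlapped, and the difference of 0.39 (SE 0.19) had an adjusted p of 0.779. On this dim probe sitagliptin lay below the berry mean by 0.33 (SE 0.15, adjusted p = 1.00), at 7.48, 7.64, 8.19 and 7.76. In PAE 0.1X the dim probe differed from water by 0.26 (SE 0.19, adjusted p = 1.00), and by 0.07 without PAE 0.1X 1. The bright probe gave 14.12 ± 0.11 in PAE 1X and 14.002 ± 0.230 on sitagliptin. As for Cela1, the dim Cpb1 probe is annotated to a cDNA clone record and the bright one to a RefSeq transcript. They may read different mRNAs.

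The lipases split dietary fat, and colipase anchors pancreatic lipase to the fat droplet. Pnliprp1, a lipase relative, was 13.89 ± 0.12 in water, Cel, the bile salt-dependent carboxyl ester lipase, 14.02 ± 0.07, and Clps 14.32 ± 0.04 and 13.97 ± 0.06 on its 2 probes. Pla2g1b had the smallest p of the members for AFFB. It measured 14.13, 14.22, 14.12 and 14.03 in water and 14.28, 14.45, 14.26 and 14.22 in AFFB, so the groups met at 14.22, and the difference was 0.18 (SE 0.12, adjusted p = 0.919). Cel on sitagliptin lay below the berry mean by 0.12 (SE 0.09, adjusted p = 1.00), and its lowest array was again sitagliptin 3, at 13.63. That difference was -0.02 without this array. In PAE 0.1X Pla2g1b differed from water by 0.13 (SE 0.12, adjusted p = 1.00).

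Pnliprp2, a lipase of broad specificity that also splits galactolipids, had probes that disagreed. ILMN_2990661 lay between 14.01 and 14.40 on every array. ILMN_2692167 lay between 13.86 and 14.22 on 20 arrays, and at 12.99 on AFFB 2, 12.21 on PAE 1X 2, 13.70 on PAE 3X 4 and 13.09 on sitagliptin 3. The same 4 arrays were low for amylase. The ILMN_2692167 difference from water was -0.38 (SE 0.31, adjusted p = 0.919) for AFFB and -0.14 without AFFB 2, and -0.39 (SE 0.31, adjusted p = 1.00) for sitagliptin and -0.18 without sitagliptin 3.

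Amylase, which splits starch, had the widest spread of any member. Amy2a5 is the pancreatic gene, and Amy1 is the gene of salivary gland and liver that is also transcribed at lower levels in pancreas. One Amy2a5 probe (ILMN_2933478) had a within-group SD of 1.42, larger than that of 99.9% of all probes. Its bead signal ran from 509 to 24202, a range of 47.5-fold.

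On that probe the water arrays stood at 14.19, 14.28, 14.24 and 14.19 and the PAE 0.1X arrays at 14.19, 14.17, 14.24 and 14.06. AFFB gave 14.40, 11.53, 14.23 and 14.21, PAE 1X 13.70, 8.41, 14.32 and 13.99, PAE 3X 13.55, 14.22, 14.40 and 13.09, and sitagliptin 14.19, 14.25, 11.39 and 14.12. AFFB 2, PAE 1X 2 and sitagliptin 3 thus lay well below the other 3 arrays of their groups, PAE 3X had 2 lower arrays at 13.09 and 13.55, and the water and PAE 0.1X arrays lay close together.

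The brighter Amy1 probe (ILMN_3000818) was low on the same arrays. It measured 9.55, 9.98, 9.57 and 9.80 in water, 9.57, 7.22, 9.28 and 9.56 in AFFB, and 9.80, 9.76, 7.47 and 9.68 on sitagliptin. PAE 0.1X gave 9.25, 9.56, 9.70 and 9.43, PAE 1X 8.38, 5.05, 9.11 and 9.38, and PAE 3X 8.12, 9.27, 9.64 and 7.82. All PAE 1X arrays lay below all water arrays, and the other groups overlapped water. The second Amy1 probe (ILMN_2626453) gave 8.27, 8.89, 8.92 and 8.60 in water, 8.16, 6.09, 8.03 and 8.51 in PAE 1X, and 7.89, 8.17, 8.32 and 7.62 in PAE 3X, with overlap in both cases.

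The other Amy2a5 probes did not share this fully. ILMN_2874291 was low on PAE 1X 2, at 11.92, and lay between 13.86 and 14.42 on the other 23 arrays. ILMN_2668124 lay between 13.99 and 14.41 throughout and stood at 14.33 on PAE 1X 2. The 3 probes of the gene thus disagreed on whether that array was low.

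**Figure D3:**
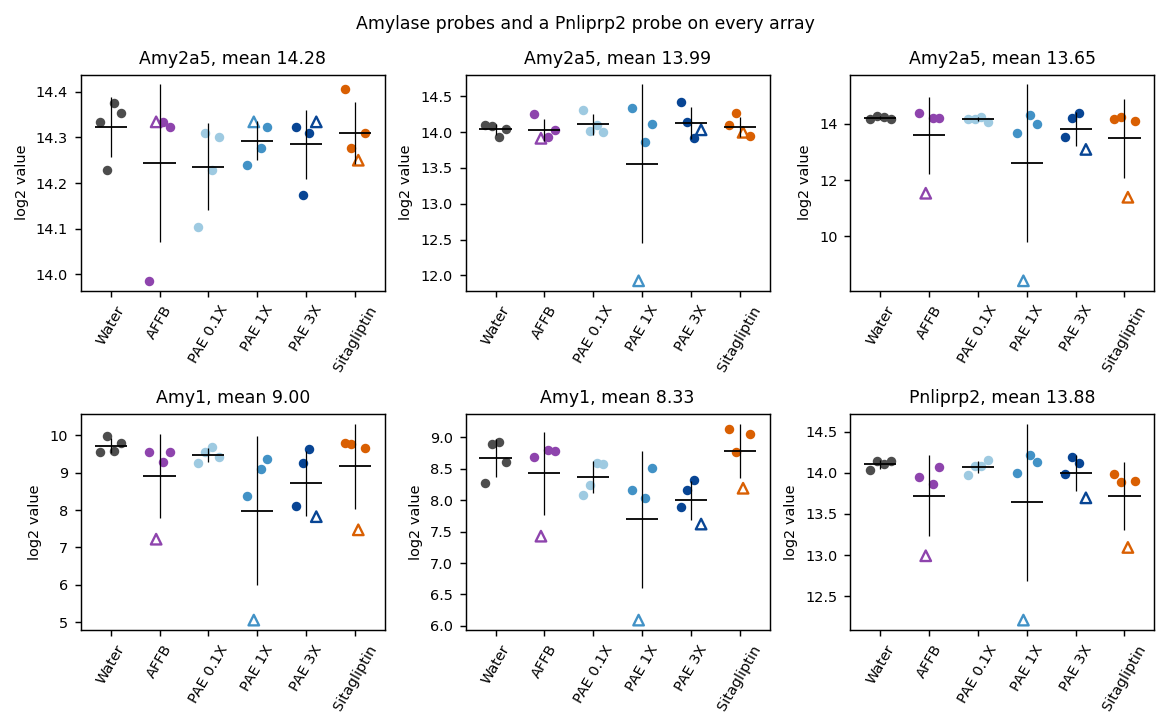
Log2 values of 5 amylase probes and 1 Pnliprp2 probe on each of 24 arrays, with the group mean (bar) and SD (line, n = 4). Each panel has its own axis. Open triangles are the arrays AFFB 2, PAE 1X 2, PAE 3X 4 and sitagliptin 3, which stood apart on the first principal component of all probes, and they lie low in 4 of the 6 panels.

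These 4 arrays also stood apart over all probes. The leading component of a principal component analysis accounted for 28.4% of the variance, and by a limit of 3 median absolute deviations AFFB 2, PAE 1X 2, PAE 3X 4 and sitagliptin 3 were far from the rest on it. The labels give no chip, date or extraction batch with which to compare them. Of the 36 members, 23, 23, 22 and 28 lay below the mean of their group's other 3 arrays on these arrays in turn, but only 5, 6, 4 and 5 by more than 0.5. Some members were high there: Prss2, anionic trypsinogen, had its highest value of the 24 arrays on AFFB 2, 14.28, and stood at 14.25 on PAE 1X 2.

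Markers of other cells were compared on these arrays as the mean log2 value of each list. The duct list, 7 of 13 genes kept, stood at 7.16, 6.86, 7.09 and 7.18 on the 4 arrays against 7.17 to 7.67 on the other 20. Its genes did not move together. Muc1, also listed here among acinar secretory genes, stood at 9.27, 8.71, 9.22 and 9.75 against 9.61 to 10.87. Sox9 stood at 8.50, 7.96, 7.88 and 8.39 against 7.93 to 8.90, and Krt7 at 5.22, 4.97, 4.88 and 4.47 against 4.32 to 5.03. The list mean thus does not measure duct content. The T and NK cell list had 1 gene kept of 10, Cd3e, which stood at 7.17, 7.09, 7.11 and 7.27 against 5.79 to 6.92. The stellate and fibroblast list, 8 of 12 kept, was at 5.40 on PAE 1X 2, below the 5.73 to 6.43 of the other 20 arrays, and within that range on the other far arrays. The islet list (13 of 18) stood at 7.82, 6.98, 7.08 and 6.67 against 5.73 to 8.30, and the macrophage list (10 of 14) at 5.43, 5.21, 5.90 and 5.82 against 5.21 to 6.40. The B and plasma cell list (3 of 12) lay within its range of 5.21 to 6.61 and the adipocyte list (8 of 12) within 4.75 to 6.16. Endothelial markers (7 of 10) stood at 5.33, 5.30, 5.74 and 5.25 against 5.28 to 6.08, and erythroid markers (4 of 9) at 9.40, 8.06, 10.25 and 8.80 against 8.13 to 10.73. The acinar defining markers were at 13.01, 12.99, 12.82 and 12.68 against 12.84 to 13.03. The part of any of these in the amylase values was not tested. In whole tissue, fewer cells of a type and less RNA per cell cannot be told apart.

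**Figure D4:**
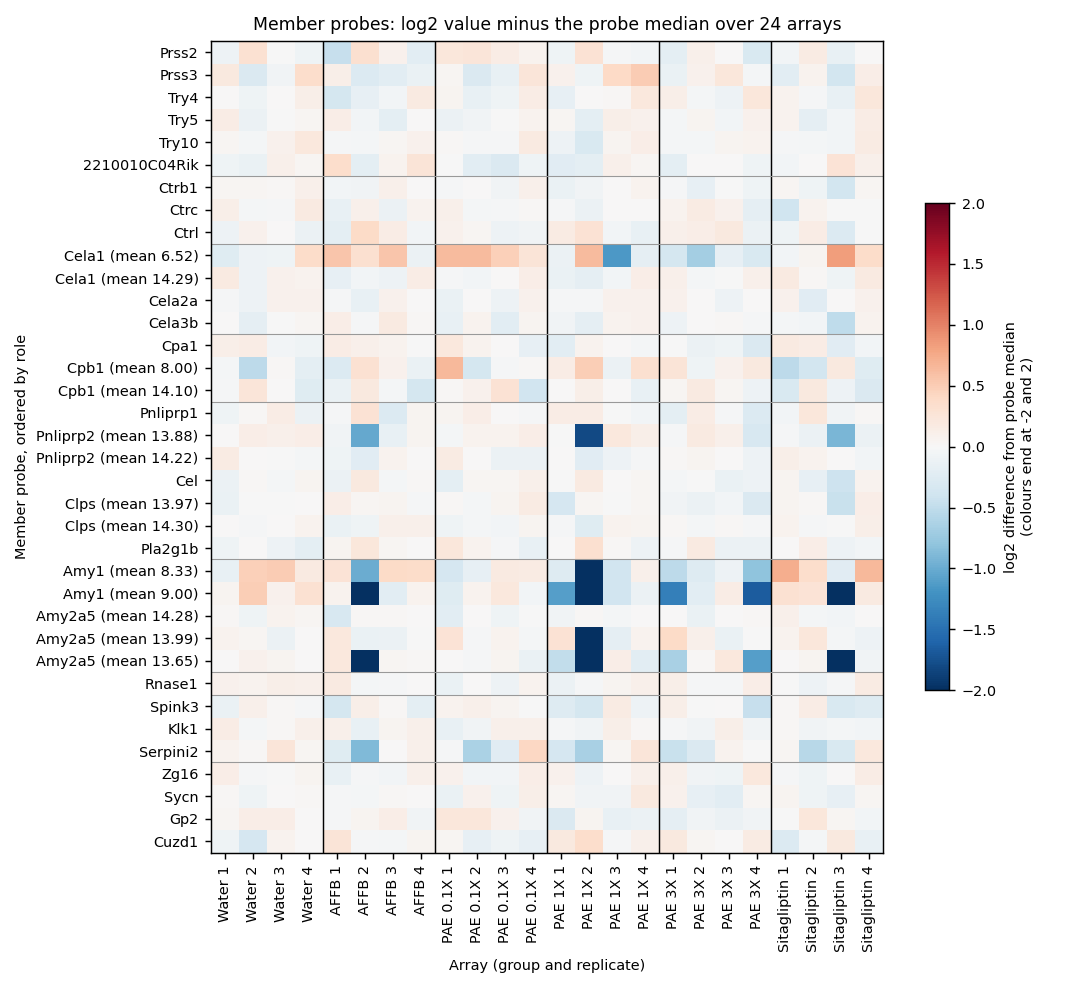
Log2 value of each member probe minus its median over the 24 arrays, ordered by role (rows) and by group and replicate (columns). Colours end at -2 and 2. Dark blue cells gather in the amylase rows and 1 Pnliprp2 row on AFFB 2, PAE 1X 2, PAE 3X 4 and sitagliptin 3, while most other rows stay pale.

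The Amy1 differences had the smallest p of the members in PAE 1X, and they depended on PAE 1X 2. Against water, ILMN_3000818 differed by -1.74 (SE 0.68, adjusted p = 0.692) and ILMN_2626453 by -0.97 (SE 0.37, adjusted p = 0.692). Without PAE 1X 2 the differences were -0.77 and -0.44. Amy2a5 on ILMN_2933478 differed by -1.62 (SE 0.87, adjusted p = 0.787) with that array in, and by -0.22 (SE 0.17, adjusted p = 1.00) without the 4 far arrays. The bright Amy2a5 probe ILMN_2668124 differed by -0.03 (SE 0.10, adjusted p = 0.961).

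In PAE 3X the Amy1 probes differed from water by -1.01 (SE 0.68) and -0.67 (SE 0.37), each with an adjusted p of 0.999. Without the 4 far arrays these were -0.71 (SE 0.26, adjusted p = 0.637) and -0.54 (SE 0.18, adjusted p = 0.522). PAE 3X 1 stayed in that fit, although it came next on the first component, at 12.7 against 19.0 for PAE 3X 4. It stood at 8.12 on ILMN_3000818, and the other PAE 3X arrays left were at 9.27 and 9.64. For AFFB the ILMN_3000818 difference was -0.82 (SE 0.68, adjusted p = 0.919) and -0.26 without the far arrays. For sitagliptin it was -0.55 (SE 0.68, adjusted p = 1.00) and 0.02 without them. Over the dose steps the Amy1 probes gave -0.45 (SE 0.22, adjusted p = 0.711) and -0.27 (SE 0.12, adjusted p = 0.653) per step, and -0.27 and -0.18 without the far arrays (adjusted p = 0.338 and 0.358). Sitagliptin lay above the berry mean on ILMN_2626453 by 0.66 (SE 0.29, adjusted p = 1.00). AFFB lay above PAE 1X on the same probe by 0.73 (SE 0.37, adjusted p = 1.00), and by 0.19 without PAE 1X 2.

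Likeness to Amy1 ILMN_3000818, a probe chosen after its values were seen, was measured over the 24 arrays for the 35 other member probes, with permutation p-values adjusted over the 35. The permutations mixed the 6 groups. Amy1 was lowest on the arrays highest on the first principal component: 5.05, 7.22, 7.47, 7.82, 8.12 and 8.38 at 56.1, 38.8, 33.7, 19.0, 12.7 and 7.6. Likeness to the rest of the 15328 probes was not measured, so these p-values do not set the members apart from all probes. The probes of highest Pearson correlation were Amy2a5 ILMN_2933478 (r = 0.95, adjusted permutation p = 0.000175; Spearman's rho = 0.65, adjusted permutation p = 0.0084), Pnliprp2 ILMN_2692167 (r = 0.91, adjusted permutation p = 0.00035; rho = 0.40, adjusted permutation p = 0.252) and Amy1 ILMN_2626453 (r = 0.90 and rho = 0.85, both with an adjusted permutation p of 0.000175). After each group's mean was taken off, r was 0.97, 0.97 and 0.93. Without the 2 arrays farthest from the median, AFFB 2 and PAE 1X 2, r was 0.85, 0.69 and 0.71. Over the 20 arrays left without all 4 far ones r was 0.81, 0.10 and 0.69 and rho was 0.40, -0.03 and 0.77. The relation to Pnliprp2 thus rested on those arrays, and the rank correlation with Amy2a5 was lower without them. Amy2a5 ILMN_2668124 had an r of -0.13 (adjusted permutation p = 0.651) and a rho of -0.00 (adjusted permutation p = 0.988).

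Probes also ran the other way. The dim Cpb1 probe ILMN_1259010 had an r of -0.63 (adjusted permutation p = 0.00434) and a rho of -0.79 (adjusted permutation p = 0.000175), and an r of -0.57 over the 20 arrays. The bright Cpb1 probe ILMN_3160208 did not share this, with an r of -0.19 (adjusted permutation p = 0.557) and a rho of -0.09 (adjusted permutation p = 0.938). Cuzd1, a membrane protein of the zymogen granule, had an r of -0.64 (adjusted permutation p = 0.00367) and a rho of -0.60 (adjusted permutation p = 0.0205), and an r of -0.61 over the 20 arrays. Without the 2 farthest arrays the r of the dim Cpb1 probe was -0.56 and that of Cuzd1 -0.65. With each group's mean taken off, these were -0.60 and -0.52.

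**Figure D5:**
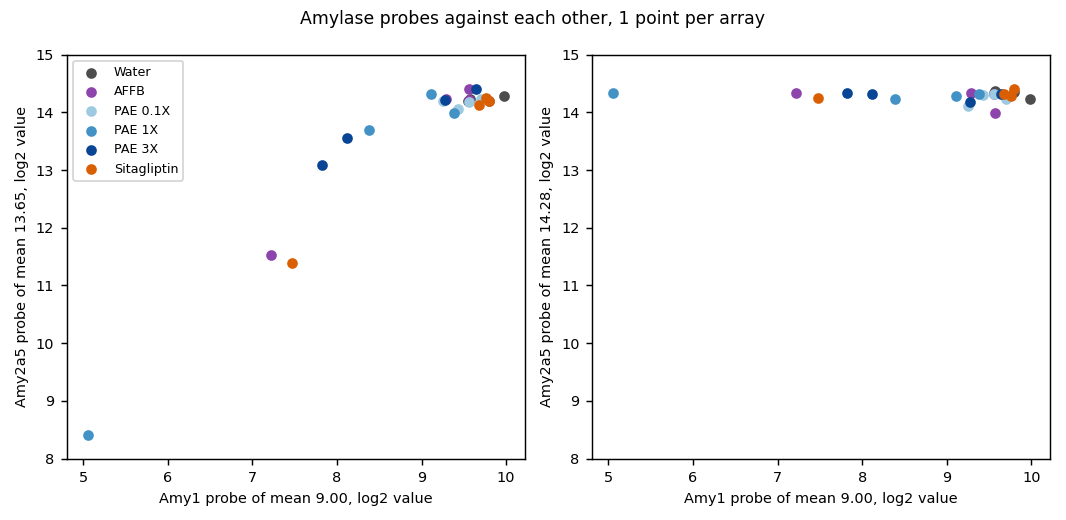
Log2 value of 2 Amy2a5 probes (vertical axes) against Amy1 ILMN_3000818 (horizontal axis), 1 point per array, coloured by group. On the left (ILMN_2933478) the arrays low for Amy1 are low for Amy2a5 as well, r = 0.95, and on the right (ILMN_2668124) all arrays lie between 13.99 and 14.41.

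The inhibitors guard the gland against trypsin that is active too early. Spink3 was 13.99 ± 0.10 in water (SD, n = 4) and between 13.86 and 14.05 in the treated groups. Serpini2, a serpin of acinar cells, measured 9.84, 9.80, 10.03 and 9.82 in water and 9.53, 8.90, 9.79 and 9.89 in AFFB. The groups overlapped, and the difference was -0.35 (SE 0.23, adjusted p = 0.919) and -0.14 without AFFB 2. Klk1 was 13.997 ± 0.082 in water and between 13.90 and 13.96 in the treated groups. Rnase1 had its largest difference in PAE 0.1X, -0.13 (SE 0.10, adjusted p = 1.00).

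Zymogen granule proteins line or fill the granule. Zg16, a lectin of the granule, was 14.23 ± 0.07 in water, and Sycn, syncollin, which is tied to the inner face of the membrane, was 14.26 ± 0.05 (SD, n = 4). Gp2 measured 14.35, 14.45, 14.45 and 14.32 in water. PAE 0.1X gave 14.54, 14.54, 14.40 and 14.25, PAE 1X 14.02, 14.38, 14.17 and 14.19, and PAE 3X 14.14, 14.25, 14.19 and 14.24. All PAE 3X arrays lay below all water arrays, while PAE 0.1X and 1X overlapped water. The PAE 3X difference was -0.19 (SE 0.11, adjusted p = 0.999), and the trend of -0.08 per dose step (SE 0.03, adjusted p = 0.647) had the smallest adjusted p of any member. Gp2 reached the top signal of the array, where values are close to ranks. Cuzd1 measured 13.74, 13.48, 13.90 and 13.82 in water and 14.03, 14.17, 13.80 and 13.93 in PAE 1X, which overlapped, and differed by 0.25 (SE 0.13, adjusted p = 0.780).

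Genes that make, carry and release these enzymes were followed as lists. Of 31 other acinar secretory genes 17 were kept, of 20 genes for zymogen handling and exocytosis 15, of 13 secretagogue receptors and their signalling partners 8, and of 14 acinar transcription factors 9. None of these genes passed in any of the comparisons, the F test over the 5 treatments included. The median difference in PAE 1X was 0.11 for the other secretory genes (13 higher, 4 lower), 0.03 for zymogen handling (8 and 7), -0.03 for the receptors (4 and 4) and 0.08 for the transcription factors (5 and 4). In PAE 3X the medians were 0.04, 0.03, -0.04 and 0.04, against 0.01 over all probes. Cadps2, a priming factor for granule release, had the smallest p of these lists, with a difference of 0.81 in PAE 1X (adjusted p = 0.112) and 0.24 per dose step (adjusted p = 0.0593). Bhlha15, also known as Mist1, a regulator of acinar secretory architecture, differed by -0.33 in PAE 3X (adjusted p = 0.942).

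In the marker lists of other cells the F test called 0 genes, and the calls in the other comparisons were those of Lpl, lipoprotein lipase of the adipocyte list, which fell by 1.08 in PAE 3X (adjusted p = 0.0361) and by 0.36 per dose step (adjusted p = 0.0143). Of the 8 kept adipocyte genes 7 were lower in PAE 3X, with a median of -0.36 against 0.01 over all probes. Lpl was detected on 24 arrays and Plin4 on 19. Adipoq was detected on 10, Lep on 7, Retn and Pparg on 5, and Car3 and Lipe on 4. Most of this list thus lay near the detection limit on many arrays, and its median does not measure adipocyte content. Clock output genes, 11 of 16 kept, had a median of 0.24 in PAE 3X. The 4 kept erythroid genes, of 9 listed, were all higher than in water in each berry group, with a median of 0.42 for AFFB, 0.44 for PAE 0.1X, 0.47 for PAE 1X and 0.93 for PAE 3X, and none passed. On sitagliptin 2 were higher and 2 lower, with a median of -0.07. Of the 13 kept islet genes, of 18 listed, 11 were lower in PAE 3X, with a median of -0.29, and none passed. The islet list mean was 6.47, 6.41, 6.46 and 8.30 on the water arrays and 6.01, 5.99, 7.29 and 7.08 in PAE 3X. These groups overlapped, and water 4 was the highest. The genes of a list share their arrays and the berry groups share the water arrays, so such gene counts are not separate evidence. The part of any of these lists in the members' values was not tested.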

How the data were processed

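Biotin-labelled RNA of mouse pancreas was measured on Illumina bead arrays. For 45281 probes on 24 arrays, 1 deposited file held the average bead signal, a linear intensity with no normalization, and the detection p-value of each probe, per the file headers. A further deposited table held log2 values made by the authors, with R 3.1.2 and limma 3.22.1 per the submitters' processing notes. They matched the values computed here, the 99th percentile of their difference being 0.00194.

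Background correction, an offset of 16 and quantile normalization were applied by limma's neqc (limma 3.58.1, R 4.3.3). The 15328 probes detected at p under 0.05 on 4 or more arrays entered a single limma fit of 6 group means, moderated by eBayes. P-values were two-sided and Benjamini-Hochberg adjusted over all 15328. Precision is limited by having 4 arrays in a group. The fit was tested on simulated data. Replicate numbers were not treated as pairs in the main fit. Deviations of same-numbered arrays had a median correlation of 0.03 over 60 pairs, from -0.55 to 0.63. For arrays of different number the median was -0.01 over 180 pairs, from -0.49 to 0.72. With ranges this wide the medians cannot exclude that some samples were paired.

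Members and lists were chosen with earlier results of these data known. Named probes were, per comparison, the 4 of smallest p, in each role the one of highest mean, the 5 of largest and 5 of smallest within-group SD, and those at 90% of an array's top signal. The amylase probe set against all others was chosen after its values were seen. Alternatives changed the background, offset, scaling, filter, spread model, covariates and arrays in the fit.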

Additional observations from a re-analysis of the deposited data

Results flagged for a closer look

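In groups of 4, Dixon's test marks an array whose gap to the nearest of the others takes up most of the group's range. It marked 14 of 216 group and probe combinations, where chance marks about 1 in 20, so the total is near that share. Of the 14, 10 were on AFFB 2, PAE 1X 2 and sitagliptin 3. PAE 3X 4, the other array that stood apart over all probes, had no marked value. On PAE 1X 2 the marked values were Amy2a5 ILMN_2933478 at 8.41 and Pnliprp2 ILMN_2692167 at 12.21, both lowest of the group, and Prss2 at 14.25, the highest. On AFFB 2 they were Amy2a5 ILMN_2933478 at 11.53, Amy1 ILMN_3000818 at 7.22, Amy1 ILMN_2626453 at 7.43 and Klk1 at 13.78, all lowest. On sitagliptin 3 they were Amy2a5 ILMN_2933478 at 11.39, Amy1 ILMN_3000818 at 7.47 and Pnliprp2 ILMN_2692167 at 13.09, all lowest.

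Of the other arrays, Clps ILMN_1246265 was lowest on water 1 at 13.87 and on PAE 1X 1 at 13.67, and Amy2a5 ILMN_2668124 was lowest on AFFB 1 at 13.99 and on PAE 3X 2 at 14.17.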

How the results depend on the processing

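The number of members passing was 0 in all 10 comparisons under every alternative run, 390 values in all, and the lowest adjusted p of a named probe was 0.226. The alternatives without the members near the top signal, and with only the brightest probe of each gene, recount the main fit over fewer members. Their counts could only be 0. The fit with a replicate block also called 0 members in each comparison, with the Amy1 ILMN_3000818 difference in PAE 1X at an adjusted p of 0.686. Of 352 medians over the members, 2 moved by more than 0.0515, the within-group SD of an array's median member deviation: PAE 0.1X to 0.0330 under median scaling, and sitagliptin to -0.0875 without the members near the top signal. Smaller shifts also changed signs, for sitagliptin against the berry mean (-0.0055) in 10 of 39 alternatives, to as high as 0.0349, for AFFB against PAE 1X (0.0185) in 3, to as low as -0.0226, and for sitagliptin against water in 2, to as high as 0.0039. Of 1336 values of single probes 5 changed sign, all far from passing. Ctrc on sitagliptin became 0.0196 under median scaling, and Amy2a5 ILMN_2874291 in AFFB against PAE 1X became -0.0347 without the far arrays and ran from -0.0739 to 0.730 when each array was left out in turn. For sitagliptin against the berry mean, Cela3b ran from -0.192 to 0.000856 when each array was left out, and Cel became 0.00800 without the far arrays. The Amy1 differences in PAE 1X ran from -2.21 to -0.77 and from -1.24 to -0.44 over the alternatives. The cause of these shifts was not tested. Signals near the top of the array limit the bright members, since normalized values there are close to ranks.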
